A study of Mus musculus with 21 samples.

Results

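The domain maps of Th2 and ES cells were lists of chromatin domains, each a stretch of chromosome given by its start and end on a 40 kb grid of the mouse build mm9. Their members were all domains of chromosomes 1 to 19 in the combined map of each cell type, 1886 in the Th2 map and 1978 in the ES map, or 3864 of the 11294 domains in all domain lists of the series. The 2 libraries of each cell type have a domain list each and served as replicates: Th2 library 1 held 1909 domains and Th2 library 2 held 1640, whereas ES library 1 held 1775 and ES library 2 held 1778.

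The series comprised 21 mouse samples from chromosome conformation capture, chromatin immunoprecipitation and RNA sequencing, of which the 4 Hi-C libraries are described. Th2 cells were T helper 2 cells derived from naive CD4+CD25-CD62LhiCD44low T cells, which were sorted from lymph nodes of C57BL/6 mice and polarised in culture with IL-4, IL-2 and antibodies to IFNγ and IL-12. ES cells were of the R1 line, an embryonic stem cell line of the strain 129X1 x 129S1 kept on feeder cells. The labels give no edited allele for either cell type. The cell types therefore also differed in strain and culture, and the ES dishes held feeders, so that these differences cannot be told apart from cell type in any comparison. The labels do not say whether the 2 libraries of a cell type came from separate animals or cultures, so the spread between them may be technical. Domain lists hold no gene expression, and the cell types could not be checked against marker genes in them.

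Hi-C joins DNA ends that lie close together in crosslinked nuclei and counts the joined pairs by sequencing. In the 3e variant the chromatin is cut with 3 restriction enzymes (CviQ I, CviA II and Bfa I) before ligation. Mammalian chromosomes are folded into domains, often called topologically associating domains, within which contacts are more frequent than across their borders. The zinc-finger protein CTCF and the ring-shaped cohesin complex are found at many of these borders. Cohesin is thought to extrude loops of chromatin until it meets CTCF. Such domains limit which enhancers and promoters contact each other. A domain list holds borders only, with no contact counts, and the sequencing depth behind each list is unknown.

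Some features of the lists bear on all results. Domain edges (distinct starts and ends) lay exactly at 7 Mb on 14 to 16 of the 19 chromosomes and exactly at 43 Mb on 13 to 15 of them, in every list. Edges at 5 Mb recurred on 4 to 8 chromosomes. At any other whole megabase, at most 4 chromosomes shared an edge. Between 63 and 73 domains per list touched or spanned these positions, and the share of domains that were the same in both maps is also given without them. Th2 library 2 stood apart from Th2 library 1 in the number of domains, whereas the ES libraries differed by 3 domains.

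Th2 chromosomes had less of their length in domains than ES chromosomes, and their median domain length was lower, by an amount that depended on the Th2 library. The median domain length was 680 kb in Th2 library 1 and 840 kb in Th2 library 2, against 880 kb in ES library 1 and 920 kb in ES library 2. Both Th2 libraries lay below both ES libraries. The mean of the library medians was 760 ± 113 kb in Th2 and 900 ± 28.3 kb in ES cells (SD, n = 2 each), a difference of -140 kb (two-sided exact permutation test over libraries, p = 0.333). Without Th2 library 1 the difference was -60 kb and without Th2 library 2 it was -220 kb, and the medians of the combined maps were 760 kb in Th2 and 800 kb in ES cells. With 4 libraries 0.333 is the smallest p that this test allows, so no difference between the cell types can pass a threshold of 0.05. Domains covered 1898 Mb in Th2 library 1 and 1846 Mb in Th2 library 2, against 2014 Mb in ES library 1 and 2028 Mb in ES library 2. The Th2 libraries were again the lower pair, with a difference of -149 Mb (exact permutation p = 0.333). The number of domains gave no such order, since the ES libraries fell between the Th2 libraries. Its difference was -2 domains (1774.5 ± 190 in Th2 and 1776.5 ± 2.12 in ES, SD, n = 2 each; exact permutation p = 1). Without Th2 library 2 the difference in number was 132.5, and without Th2 library 1 it was -136.5.

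The extremes of domain length lay further apart in Th2 than in ES cells, whereas the middle of the distribution was about as wide. The quartiles were 400 and 1200 kb in Th2 library 1 and 480 and 1400 kb in Th2 library 2, against 560 and 1480 kb in both ES libraries. The longest domain measured 10360 kb in the Th2 combined map and 5400 kb in the ES combined map. In the libraries it measured 10120 and 10520 kb in Th2 and 8240 and 7200 kb in ES cells. At the long end this held for the longest domain only. Domains over 3 Mb numbered 69 and 75 in the Th2 libraries and 66 and 71 in the ES libraries. Those of 2 Mb or more numbered 193 and 219 in Th2 and 226 and 233 in ES cells. Short domains were more frequent in Th2, with 72 and 44 domains of 200 kb or less in the Th2 libraries and 25 and 20 in the ES libraries. In the Th2 combined map 61.6% of neighbouring domains abutted, meaning that one ended where the next began, against 46.8% in the ES combined map. The libraries gave 69.7% and 49.4% in Th2 and 43.3% and 37.7% in ES cells, so the groups did not overlap but Th2 library 2 lay closer to the ES libraries than to Th2 library 1. Gaps of 1 Mb or more between neighbouring domains numbered 118 and 127 in the Th2 libraries and 75 and 69 in the ES libraries. Th2 maps thus combined directly abutting domains with more long stretches that held none.

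**Figure D1:**
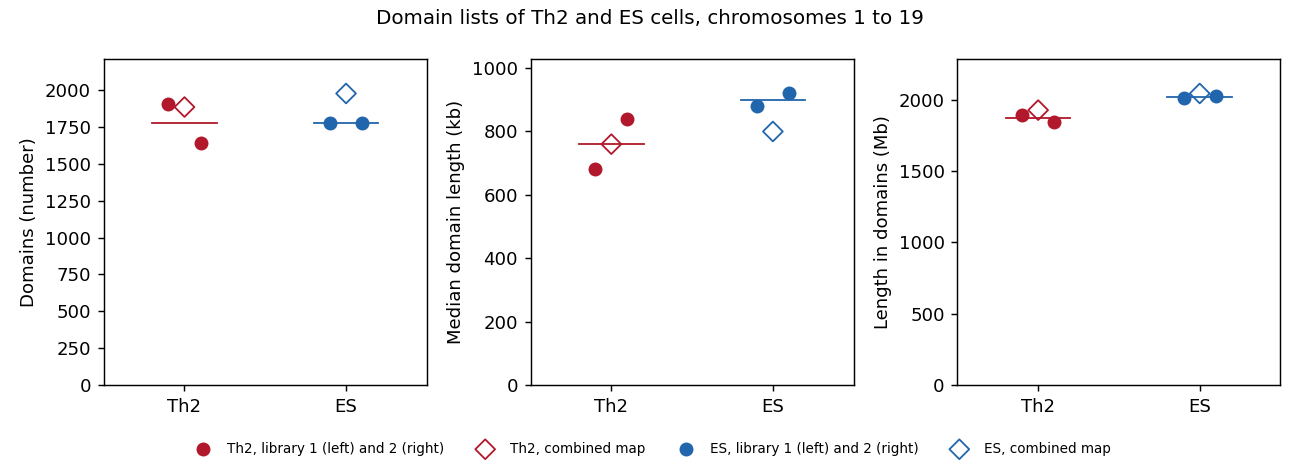
Domain number, median length (kb) and total length in domains (Mb) of each list on chromosomes 1 to 19, with Th2 at the left of ES; circles are libraries 1 (left) and 2 (right), lines their means and diamonds the combined maps. The Th2 libraries lie below both ES libraries in median length and in length in domains, and on either side of them in domain number.

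Domains differed more between the cell types than between libraries of a cell type. A domain was counted as the same if a domain of the other list had its start and its end each within 40 kb, which is 1 bin of the grid. By this measure, averaged over both directions, the 4 pairs of a Th2 and an ES library shared 19.2% to 21.0% of their domains. The Th2 libraries shared 49.9% with each other and the ES libraries 55.6%. The mean was 20.2% between and 52.7% within cell types, a difference of -32.6 percentage points. Without the domains at 5, 7 or 43 Mb it was -32.9 percentage points. Edges were shared more often than whole domains: 53.0% to 54.2% of edges had a counterpart within 40 kb in the pairs between cell types, against 75.8% and 78.7% within them. The difference in shared edges was -23.5 percentage points. The best overlap of a domain was the length it shared with a domain of the other list over the length of both together. Its median over domains, averaged over both directions and over pairs, was 0.585 between and 0.907 within cell types. In each of these measures all 4 pairs between cell types lay below both pairs within them, with an exact permutation p of 0.333 (one-sided, over the 3 ways to pair the libraries), the smallest this design allows.

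The other ways in which domains can relate were then counted. A domain was absent if less than 20% of its length lay in domains of the other map. It was split if it held 2 or more domains of the other map, to within 40 kb at its ends, and it could also hold exactly 1. A domain that lay inside a domain of the other map was merged if that domain took in other domains of its own map too, and nested if it lay there alone. All remaining domains, whose edges had moved on one or both sides so that they crossed an edge of the other map or lay partly outside its domains, were shifted. With this tolerance each of these classes was more frequent between the cell types than within them. The shares of all classes make up the whole list, so the lower share of the same domains between cell types raises the others as a whole. How far each ratio goes beyond that rise was not tested, and the classes are not separate results. Shifted domains made up 9.94% of domains between and 2.08% within cell types, and absent ones 3.45% between and 0.802% within. The ratio of between to within was thus 4.78 for shifted and 4.30 for absent domains. For split domains it was 1.31, for merged ones 1.42, for nested ones 1.61 and for domains that held a single other domain 1.64. Splits and merges were thus common between libraries of 1 cell type as well. The ratios depended on the edge tolerance: when ends had to be identical, shifted domains made up 21.1% between and 8.97% within cell types, a ratio of 2.36, and the ratio was 1.00 for nested domains and 1.01 for domains that held a single other domain. The ratio for absent domains does not involve the tolerance. The exact permutation p was 0.333 for each class.

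**Figure D2:**
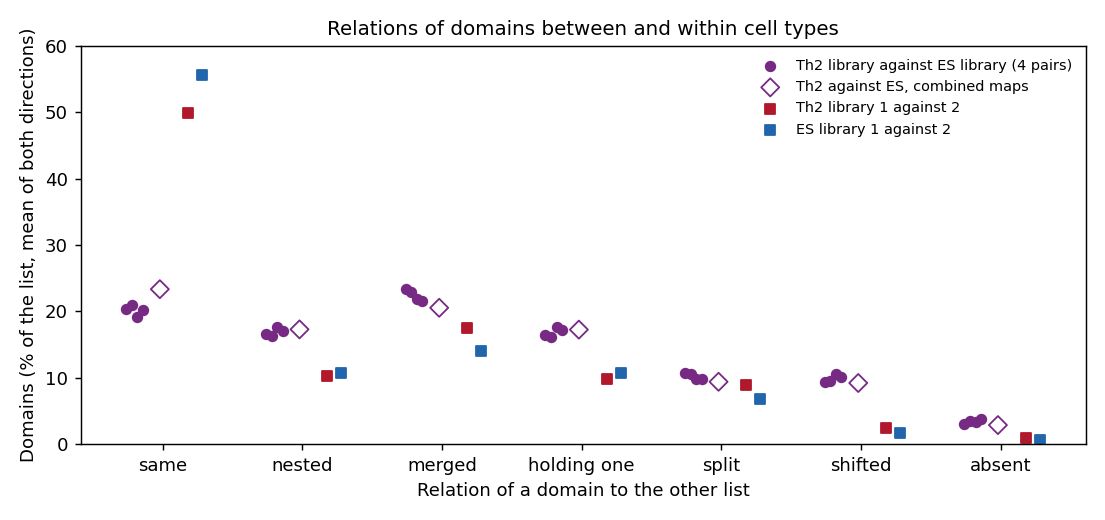
Share of domains (%) in each class for the 4 pairs of a Th2 and an ES library (purple circles), the combined maps (open diamonds), the Th2 libraries against each other (red squares) and the ES libraries against each other (blue squares), each the mean of both directions. The purple circles lie below both squares for the same domains and above both squares in every other class.

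In the combined maps, 451 domains were the same. They made up 23.9% of the Th2 map (exact binomial 95% interval 22.0% to 25.9%, for counting only) and 22.8% of the ES map (21.0% to 24.7%). Without the domains at 5, 7 or 43 Mb these shares were 23.6% of the Th2 map and 22.5% of the ES map. Of the 451 domains, 167 had identical ends in both maps, 214 had 1 end moved by 1 bin and 70 had both ends moved. The Th2 domain was the longer in 158 of them and the shorter in 102. Of the 451 Th2 domains, 275 were also the same in both Th2 libraries, or 61.0%, whereas the other classes of Th2 domains gave 26.8% (shifted) to 48.0% (absent). For ES domains the values were 60.5% for the same domains and 30.6% (shifted) to 52.3% (split) for the others. Domains found in both maps were thus also those found most often in both libraries of their own cell type. The labels name no other libraries for the combined maps, so a combined map and its libraries were not treated as independent.

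The share was higher among domains found in both libraries of their own cell type. Of the 824 such Th2 domains, 275 were the same in the ES combined map, or 33.4%, and of the 920 such ES domains, 273 were the same in the Th2 combined map, or 29.7%. Set against the libraries of the other cell type, 175 of the 824 Th2 domains were the same in both ES libraries, or 21.2%, and 515 were the same in neither of them. Of the 920 ES domains, 174 were the same in both Th2 libraries, or 18.9%, and 593 in neither. The larger part of the domains that replicated within a cell type therefore had no counterpart with the same ends in the other.

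The 3 longest domains that were the same in all lists were 2880 to 3880 kb long. A domain at chr17:9200001-12200000, of 3000 kb, had identical ends in all Th2 and all ES lists. A domain at chr3:154280001-157160000 in the Th2 combined map and Th2 library 2 ended at 157200000 in Th2 library 1 and in all ES lists. The longest, at chr5:7000001-10880000, ended at 10880000 in all lists but ES library 1, where it ended at 10840000. Its start lies at 7 Mb, 1 of the recurring positions.

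The same domains formed 307 runs of neighbours that were the same in both maps. Of the 451 domains, 219 stood alone and 232 lay in runs of 2 or more. There were 38 runs of 3 or more, with 132 domains in all. The run with the most domains, 7, reached over 5.92 Mb at chr17:79000001-84920000. A run of 6 domains lay at chr14:18160001-22720000 and one of 5 at chr2:5880001-11240000. Another run of 5 lay at chr8:114560001-119400000.

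Among the Th2 domains, 189 were split in the ES map, or 10.0% of the map and 419 Mb. Among the ES domains, 174 were split in the Th2 map, or 8.80% and 245 Mb. Without the domains at 5, 7 or 43 Mb these shares were 9.51% in the Th2 and 8.89% in the ES map. Split domains were long, with a median of 1720 kb in Th2 and 1200 kb in ES cells. Most were divided in 2, namely 152 of the Th2 and 153 of the ES domains. Outer borders were mostly kept: 135 of the 189 split Th2 domains and 138 of the 174 split ES domains had both outer edges within 40 kb of an edge in the other map. The direction of splitting depended on the library. Of the domains of Th2 library 1, 136 were split in ES library 1 and 143 in ES library 2, whereas 255 and 243 ES domains were split in Th2 library 1. Of the domains of Th2 library 2, 171 and 177 were split in the ES libraries, and 166 and 160 ES domains were split in it. Between the Th2 libraries themselves, 240 domains of library 2 were split in library 1 and 62 the other way. The combined maps therefore give no direction for splitting that all libraries share.

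Some individual splits held in every library. They are given for domains whose whole form was found in both libraries of 1 cell type. Such domains also had to be split in the combined map and in both libraries of the other. This condition was met by 36 of the 189 split Th2 domains and 56 of the 174 split ES domains, so most splits did not meet it. The Th2 domain split into the most parts, at chr8:43000001-49240000, was a single domain in both Th2 libraries and held 5 ES domains of 3360, 640, 800, 480 and 320 kb. Both ES libraries also had 5 domains there. Its start lies at 43 Mb, as does that of a Th2 domain of 8000 kb at chr3:43000001-51000000, which had the same ends in both Th2 libraries. The ES combined map and ES library 1 had 4 domains in its place and ES library 2 had 3. All of these ES lists kept its outer edges.

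A further Th2 domain, at chr15:53840001-57360000, lies away from the recurring positions and was identical in all Th2 lists. The ES combined map had 4 domains within it, at 53880001-54280000, 54440001-55400000, 55520001-55920000 and 56120001-57360000. Each ES library had 3 domains within it. Domains covered 71.6% of this stretch in ES library 1 and 72.7% in ES library 2, so that part of the Th2 domain fell into gaps between ES domains. A Th2 domain at chr5:91360001-94200000 held 4 domains of the ES combined map and 2 of each ES library. In ES library 2 a further domain, at 90240001-91760000, ran across its start.

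In the other direction, an ES domain at chr15:98320001-99800000 was identical in all ES lists. The Th2 combined map had 4 domains within it, of 320, 200, 480 and 320 kb, and each Th2 library had 3. Borders at 98840000 and at 99320000 were found in every Th2 list. An ES domain at chr2:17320001-19320000 was identical in all ES lists too and was divided in 3 in all Th2 lists. Its first inner border lay at 18280000 in the Th2 combined map and Th2 library 2, whereas Th2 library 1 ended a domain at 18160000 and began the next at 18280001. An ES domain at chr2:35360001-37200000 had inner Th2 borders at 35840000 and 36160000 in every Th2 list. An ES domain at chr4:47400001-49680000 was divided in 3 in the Th2 combined map and in 2 in both Th2 libraries. The Th2 parts filled 87.7% to 98.0% of these 4 ES domains, so that little of them fell into Th2 gaps.

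**Figure D3:**
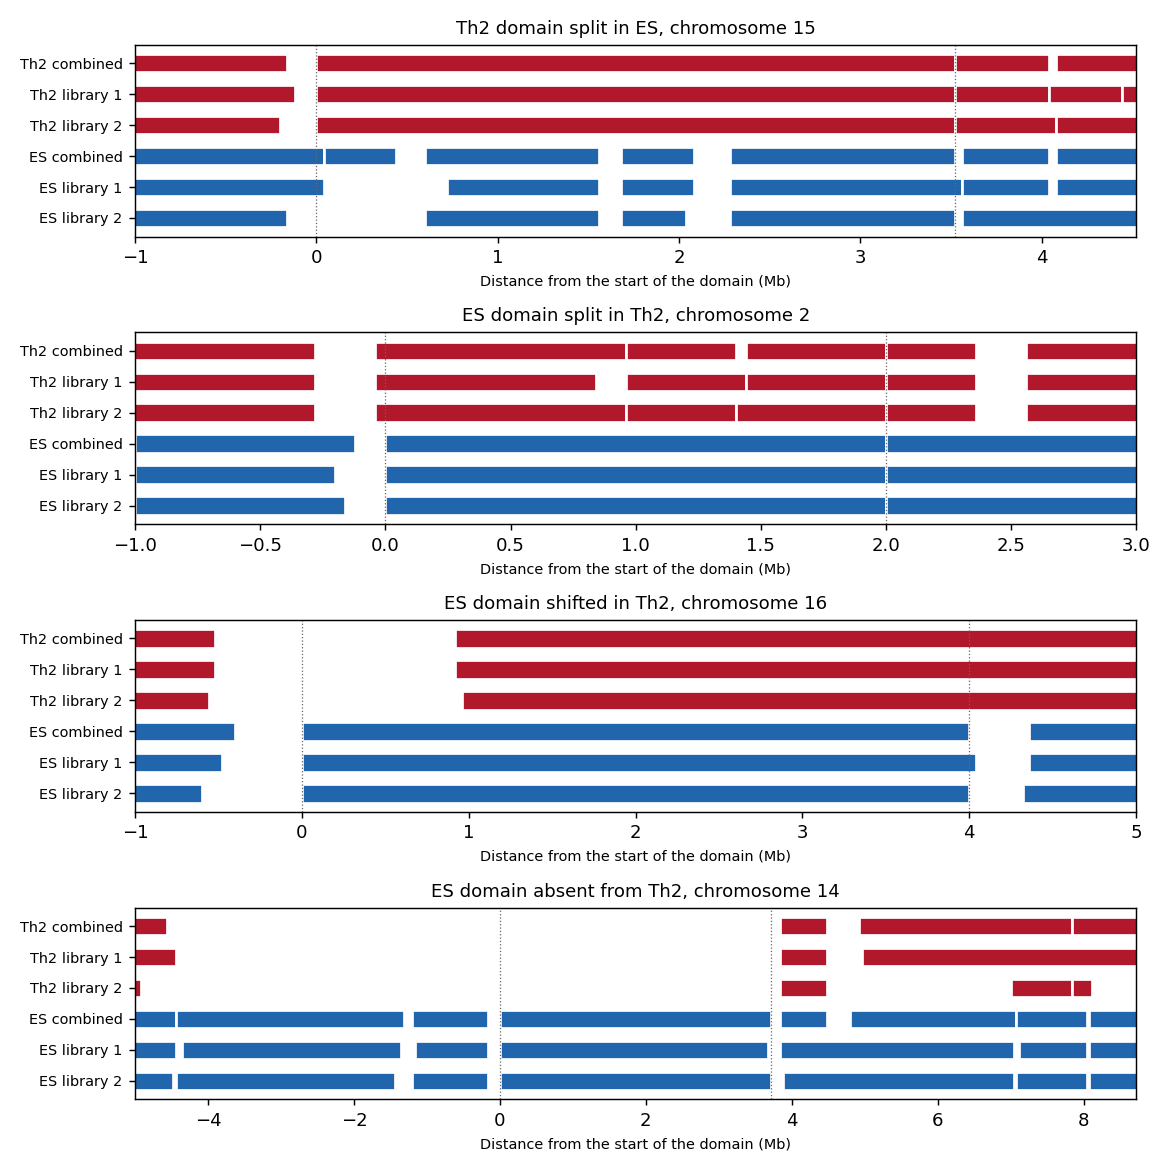
Domains (bars) in the 6 lists around 4 named domains, with Th2 lists above ES lists and distance from the start of the named domain in Mb; dotted lines mark its ends, and bars that reach beyond a panel are cut at its border. From top to bottom they are the Th2 domain on chromosome 15 that held 4 ES domains, the ES domain on chromosome 2 that held 3 Th2 domains, the shifted domain on chromosome 16 and the ES domain on chromosome 14 in whose place no Th2 list had a domain.

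Most nested and merged domains had 1 of their edges within 40 kb of an edge in the other map. This held for 278 of the 318 nested Th2 domains and 289 of the 351 nested ES domains, and for 290 of the 371 merged Th2 domains and 292 of the 424 merged ES domains. By definition these classes keep 1 edge at most. Whether the counts exceed those given by the share of all edges found in both maps was not tested. Shifted domains, whose class requires other edges, differed: 112 of 183 shifted Th2 domains and 113 of 173 shifted ES domains kept neither edge. Over all edges, 37.5% of the 2622 Th2 edges had an ES edge at exactly the same position and 20.9% had one at 40 kb. For the 3040 ES edges the shares were 32.3% and 21.4%. Edges far from any in the other map were mostly ES edges, with 30 Th2 edges and 185 ES edges more than 1 Mb away. This count is not independent of the gaps of 1 Mb or more, which numbered 111 in the Th2 and 60 in the ES combined map.

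A shift was called reproducible if the domain was the same in both own libraries and shifted against all lists of the other cell type. This held for 23 of the 183 shifted Th2 domains and 24 of the 173 shifted ES domains. Among the 3 largest shifts of ES domains was that of a domain on chromosome 16. The Th2 domain that overlapped it best ran from 72160001 to 77120000 in the combined map and library 1 and from 72200001 in library 2. The ES domain ran from 71240001 to 75240000 in the combined map and library 2 and to 75280000 in library 1. Both edges of the Th2 domain thus lay further along the chromosome, by distances that add up to 2800 kb. All ES lists had a second domain inside this Th2 domain, at 75600001-76960000 in the combined map and library 1 and from 75560001 in library 2. The distances are thus those between best overlapping domains and not the path of a single domain. On chromosome 1 the Th2 combined map had a domain at 22520001-24840000, against an ES domain at 24360001-25960000, and the overlap was 30% of the ES domain in both Th2 libraries. This Th2 domain also held another ES domain, at 22600001-24320000 in the ES combined map and from 23680001 in both ES libraries. The ES domain at 24360001-25960000 was thus not the only counterpart of the Th2 domain.

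A region of chromosome 12 gave a shift in each direction. All Th2 lists had a border at 31240000, between a domain that began at 27200001 and one that ended at 31960000 or, in Th2 library 2, at 32000000. All ES lists had instead a domain at 29200001-31720000 that reached across this border and was followed directly by another. All ES lists also had a domain at 27160001-29160000, which lay inside the first of these Th2 domains to within 40 kb. Both shifts thus involve the Th2 border at 31240000 and are not separate. On chromosome 4 a Th2 domain at 86160001-88440000 lay across an ES border at 86600000 that all ES lists had. On chromosome 7 a Th2 domain at 30520001-31000000 reached past the end of an ES domain at 30920000. In Th2 library 2 it ended at 30960000, within 40 kb of the ES end, so that the domain of this library was nested and not shifted. Each of these shifted domains was found in both libraries of its own cell type, to within 40 kb at each end.

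Absent domains were more frequent and longer among ES domains. A domain can be absent only where the other list has few or no domains, and the Th2 lists had less length in domains. The order is therefore not independent of that difference, and how far it goes beyond it was not tested. In the Th2 map 25 domains were absent from the ES map, or 1.33%, with a median length of 360 kb and 21.0 Mb in all. In the ES map 88 domains were absent from the Th2 map, or 4.45%, with a median of 1400 kb and 146.0 Mb in all. Without the domains at 5, 7 or 43 Mb the shares were 1.26% in the Th2 and 4.50% in the ES map. This order held in every pair of libraries: 32, 32, 21 and 21 Th2 domains were absent from an ES library, against 80, 94, 98 and 113 ES domains absent from the Th2 library of the pair. Within cell types 27 and 10 domains were absent between the Th2 libraries and 9 and 12 between the ES libraries. Of the 25 Th2 domains, 11 were absent in both ES libraries, and of the 88 ES domains, 69 were absent in both Th2 libraries. No Th2 list had any domain overlapping 43 of these ES domains.

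The share of ES domains absent from the Th2 map was highest among the long ones. Of the 188 Th2 domains over 2000 kb, 3 were absent from the ES map, or 1.60%, whereas of the 192 ES domains over 2000 kb, 24 were absent from the Th2 map, or 12.5%. Of domains up to 400 kb, 3.16% of those in Th2 and 2.76% of those in ES cells were absent. Long Th2 domains were most often split, with 38.8% of those over 2000 kb in this class, against 15.6% of the ES domains of that length. These shares come from 1 combined map per cell type, and the difference was not tested. Those of absent domains are also not independent of the larger number of long gaps in the Th2 map.

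**Figure D4:**
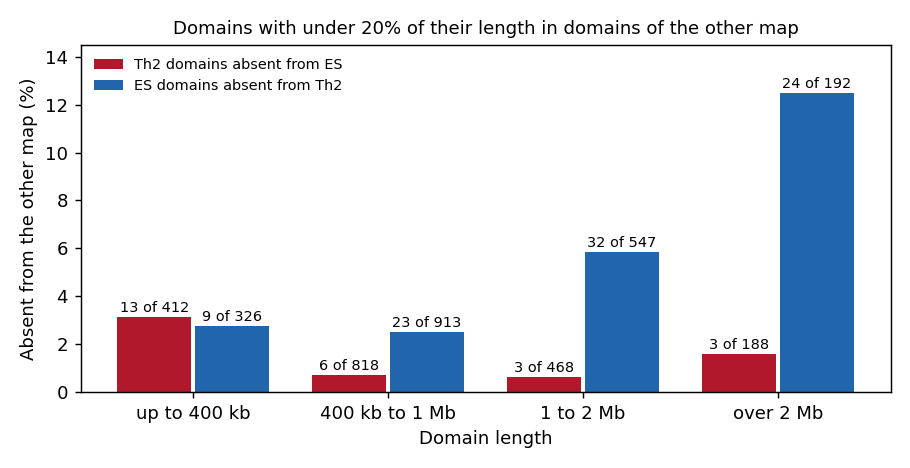
Share of domains absent from the other combined map (%) by domain length, for Th2 domains (red, left bars) and ES domains (blue, right bars); the numbers above the bars are the absent domains and all domains of a class. Among domains over 2000 kb, 1.60% of the Th2 and 12.5% of the ES domains were absent from the other map.

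The longest ES domains that were found in both ES libraries and absent from the Th2 combined map and both Th2 libraries lay in long stretches without Th2 domains. On chromosome 14 an ES domain at chr14:111360001-115080000 fell in a Th2 gap of 8.40 Mb in the combined map, 8.28 Mb in Th2 library 1 and 8.76 Mb in Th2 library 2. A second ES domain on this chromosome, at chr14:94440001-97320000, lay in Th2 gaps of 10.0 Mb, 11.44 Mb and 9.52 Mb in these lists. An ES domain at chr12:62920001-66000000 lay in a gap of 5.64 Mb with the same borders in all Th2 lists. All ES lists had these domains, with ends that differed by at most 40 kb. No Th2 list had any domain across these stretches.

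Only 4 of the 25 absent Th2 domains met the same condition in the other direction, against 25 of the 88 absent ES domains. The 4 Th2 domains were short. A Th2 domain of 360 kb at chr8:36560001-36920000 was identical in all Th2 lists and exactly filled a gap between ES domains that was identical in all ES lists. A Th2 domain of 360 kb at chr13:38760001-39120000 likewise filled a gap of the ES combined map and ES library 2, and the gap measured 0.72 Mb in ES library 1. A Th2 domain of 320 kb at chr6:146760001-147080000 was identical in all Th2 lists.

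Chromosome length counted in place of domains gave the same order. That order largely follows from the smaller length in domains of the Th2 lists and is not a further result. All 4 libraries had domains over 1553.8 Mb, and none of them over 197.4 Mb. Both Th2 libraries and no ES library had domains over 74.8 Mb, whereas both ES libraries and no Th2 library had them over 182.5 Mb. Each combination of 1 Th2 and 1 ES library without the others covered 10.6 to 14.3 Mb. Stretches in domains in all Th2 lists and in no ES list numbered 454 with 59.7 Mb, of which 6 reached 1 Mb, with 8.88 Mb. Stretches in domains in all ES lists and in no Th2 list numbered 300 with 162.4 Mb, of which 53 reached 1 Mb, with 101.8 Mb. Of these 101.8 Mb, 15.9 Mb in 6 stretches lay on chromosome 14 and 15.2 Mb in 7 stretches on chromosome 1, and chromosome 19 had none.

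The share of the same domains is given by chromosome as a description. The Th2 combined map had 53 domains on chromosome 19 and 158 on chromosome 2, the fewest and the most. Whether the chromosomes differed by more than such counts allow was not tested. The share of domains that were the same was lower in all pairs of libraries between the cell types than in both pairs within them on 19 of 19 chromosomes. In the combined maps it was highest on chromosome 10, with 33.7% of Th2 and 31.5% of ES domains, followed by chromosome 17 with 30.7% of Th2 and 30.3% of ES domains. By the mean of both maps it was lowest on chromosome 5, with 19.3% of Th2 and 17.2% of ES domains, and nearly as low on chromosome 3, with 20.0% of Th2 and 16.7% of ES domains. The pairs of a Th2 and an ES library averaged 29.7% on chromosome 10, again the highest, and 15.9% on chromosome 5, where the highest pair reached 18.2%. In these pairs chromosome 12 was the lowest, with a mean of 15.2%, and chromosome 17 averaged 20.4%.

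Length in domains was lower in the Th2 combined map on 16 chromosomes and higher on chromosomes 9, 13 and 17. On 14 chromosomes both Th2 libraries lay below both ES libraries in this length. Chromosome 14 had 82.6 Mb and 79.6 Mb in domains in the Th2 libraries, against 99.5 Mb and 105.2 Mb in the ES libraries. On chromosome 1 the values were 143.0 Mb and 143.5 Mb in Th2 and 157.6 Mb and 164.8 Mb in ES cells. Chromosome 9, with a higher length in the Th2 combined map, had 99.8 Mb and 98.4 Mb in the Th2 libraries and 101.1 Mb and 104.6 Mb in the ES libraries, so the libraries did not share the direction of the combined maps there. ES domains absent from the other map outnumbered such Th2 domains on 15 of the 19 chromosomes.

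The number of domains was lower in the Th2 combined map on 15 chromosomes and higher on chromosomes 2, 6, 7 and 11. Among these 15, both Th2 libraries lay below both ES libraries in number only on chromosomes 8, 16 and 18. On chromosomes 7 and 11 both Th2 libraries had more domains than both ES libraries. Chromosome 7 had 109 and 94 domains in the Th2 libraries, against 90 and 87 in the ES libraries, and chromosome 11 had 134 and 113 domains in Th2, against 107 and 110 in ES cells. The median length on chromosome 11 was 540 and 680 kb in Th2 and 880 and 800 kb in ES cells. Chromosomes 7 and 11 also had the most protein-coding genes per Mb, with 14.1 and 13.8, as counted in RefSeq for the assembly GRCm38.p6 over the span of the mm9 lists. In the combined maps the ratio of Th2 to ES domain number had a Spearman rho of 0.50 with the number of these genes per Mb. It was taken across the 19 chromosomes as a description, since all chromosomes come from the same libraries. For the share of the same domains rho was 0.20.

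**Figure D5:**
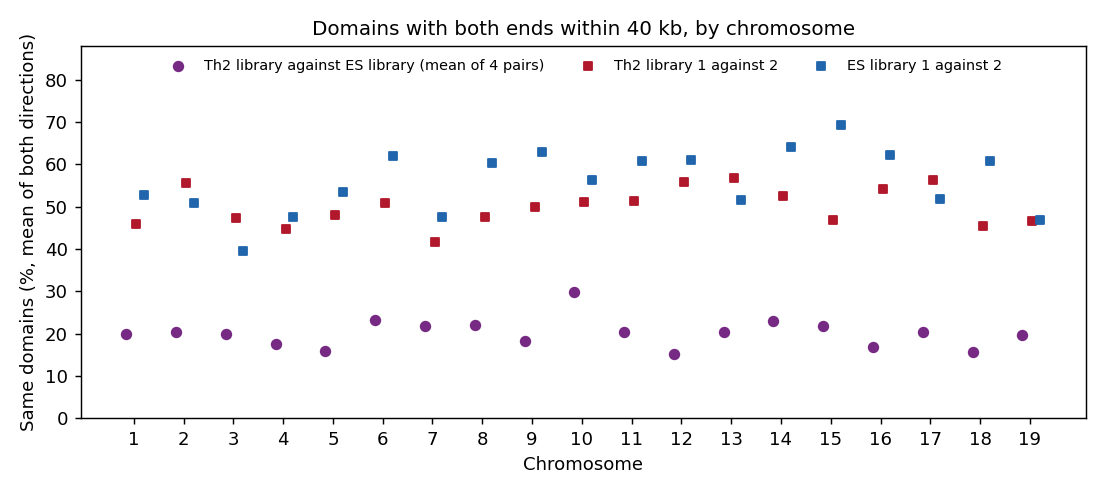
Share of the same domains (%, mean of both directions) on each of the 19 chromosomes, as the mean over the 4 pairs of a Th2 and an ES library (purple circles), for the Th2 libraries against each other (red squares) and for the ES libraries against each other (blue squares). The circles lie below both squares on every chromosome, and the highest circle, 29.7%, is that of chromosome 10.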

How the data were processed

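The 3e Hi-C libraries, 2 of Th2 cells and 2 of ES cells, were grouped by their sample titles. Reads were aligned with Bowtie2 to mm9, per the submitters' processing notes. Not given in the sources used here are the domain caller, its settings, the aligner's version and the way libraries of a cell type were combined. The authors deposited 1 list per library and 1 combined list per cell type, each with chromosome, start and end in base pairs and no counts or coverage, so depth is unknown. The remaining 17 samples of the series and domains outside chromosomes 1 to 19 were not used. Since positions are in mm9 and only gene tables of GRCm38.p6 were at hand, no gene or sequence was placed in a domain.

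Starts are written 1-based. Values per list were compared by a two-sided exact permutation test over the 6 assignments of 4 libraries. Agreement between against within cell types was compared by a one-sided exact permutation test over the 3 pairings. Shares of a combined map have exact binomial 95% intervals (Clopper-Pearson), which treat domains as independent and serve as a scale for counting only. The code for the classes was checked on the Th2 combined map after edits made to fit each definition. This check shows that the rules were followed, and not how the classes behave under noise in the lists. Alternatives were an edge tolerance of 0 or 80 kb, a reciprocal overlap of 80%, an absence limit of 50% or 0% of the length, domains of at least 200 kb or at most 3 Mb, single pairs of libraries, leaving out each library, and a replicate block. Leaving out domains at 5, 7 or 43 Mb, and class ratios at other edge tolerances, were added after seeing the data. The members, classes and alternatives were chosen with earlier results of these data known.

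Named domains came from the combined maps by a rule. It took the 3 longest same domains found in all 4 libraries, and up to 4 domains each way split into the most parts. It took up to 3 absent domains each way by length and up to 3 shifted ones by displacement. Split, absent and shifted domains had to be found in both libraries of their own cell type, with the same class against the combined map and both libraries of the other. Last it took the 3 runs with the most domains, and the chromosomes with the highest and lowest share of the same domains. The run of 5 domains on chromosome 8 and chromosomes 1, 3, 7, 9, 11, 12, 14 and 17 were chosen after their values were seen. Calculations used Python 3.11.15, numpy 2.4.6, pandas 2.3.3 and scipy 1.17.1, and plots matplotlib 3.10.9.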

Additional observations from a re-analysis of the deposited data

How the results depend on the processing

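Of 48 alternative values of the results with a test, 47 kept the direction. The exception was the difference in domain number, which ranged from -136.5 to 132.5 with 1 library left out. Part of the 47 could not have changed direction. The replicate block leaves the difference itself as it was. Where the compared values did not overlap, leaving out 1 library cannot reverse the difference, so the count is no measure of robustness. Leaving out 1 library gave -220 to -60 kb for the median length, -175 to -123 Mb for the length in domains, -25.3 to -21.8 percentage points for shared edges, -35.9 to -29.3 for the same domains and -0.35 to -0.30 for the best overlap. The share of Th2 domains that were the same in the ES map was 8.85% when ends had to be identical, 28.8% within 80 kb and 35.4% with a reciprocal overlap of 80%, and in pairs of libraries 19.6%, 20.2%, 19.9% and 21.0%. The share of ES domains was 8.44% with identical ends, 27.5% within 80 kb, 33.7% with the reciprocal overlap, and 18.4% and 19.4% for ES libraries 1 and 2 against Th2 library 2. Looser criteria give higher shares by construction. Of 144 alternative values of the other classes, 44 moved by more than their counting interval. Shifted domains made up 20.0% of the Th2 and 19.2% of the ES map with identical ends. Absent domains made up 2.28% of the Th2 and 6.57% of the ES map with a limit of 50% of the length, 0.954% and 2.83% when no overlap was allowed, and 2.64% and 10.2% among domains of at most 3 Mb, so the ES share was the higher under each. The replicate numbers of the titles pair nothing known: deviations from the cell type means over chromosomes had an r of 0.13 between libraries of the same number for domain number and -0.14 for length in domains. With a replicate block the difference in length in domains was -149 Mb with an exact permutation p of 0.50, the smallest it allows. No sequencing depth or contact counts were used, so that a domain absent from a list cannot be told apart from a stretch where no domain could be called.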
